A study of Mus musculus with 11 samples.

Results

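Death ligands, a death receptor and the proteins that carry or block the death signal were followed in mouse CD8+ effector T cells. The genes are Fasl and Tnfsf10 (ligands), Fas (receptor), Fadd (adaptor), Casp8 (caspase) and Cflar, Birc2 and Birc3 (inhibitors), so that of these genes only Casp8 is a caspase. They were chosen by name from the extrinsic death pathway, 8 of 18193 genes on the array with a probe set of 1 gene symbol, and are measured by 17 such probe sets. All 8 were among the 14795 genes tested. Each was represented by its probe set with the highest mean, which lay above the filter level (1.54 on the log2 scale) on all 11 arrays.

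The cells came from Pmel-1 transgenic mice, in which CD8+ T cells carry a transgenic receptor for gp100, a melanocyte protein, so all groups share that transgene. CD8+ cells were enriched as naive (CD44-) or central memory (CD44+), stimulated on plates coated with antibodies to CD3 and CD28, and grown for a week. They were then restimulated on allogeneic feeder cells carrying the hgp100(25-33) peptide, and per the labels were cultured for 2 weeks in 10 cetus units of IL2. Before RNA extraction they received a final CD3/CD28 stimulation of 4 h or none. There were 3 arrays each of memory-derived unstimulated, memory-derived stimulated and naive-derived stimulated effectors and 2 of naive-derived unstimulated effectors. They came from 3 independent experiments, and the biological replicate number in an array's title was taken as the number of its experiment. The purity of the enriched cells, the age of the mice and whether mice were pooled are not given in the sources used here. In bulk RNA, fewer cells of a type and less RNA per cell cannot be told apart.

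In the extrinsic pathway a death ligand on one cell clusters its receptor on another, and the receptor's tail recruits the adaptor FADD, which brings in procaspase 8. c-FLIP, the product of Cflar, is a relative of caspase 8 that enters the same complex and limits its activation, and cIAP1 and cIAP2 (Birc2 and Birc3) are ubiquitin ligases that hold back cell death at the TNF receptor. Activated CD8+ T cells use Fas ligand to kill target cells, and the same ligand can kill the T cells themselves after repeated stimulation.

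The promoters of Cflar, Casp8, Fas, Fasl and Birc2 are shown, because these genes moved in opposite directions and Cflar and Casp8 are neighbours in the genome. On GRCm38.p6 (positions and sequences from RefSeq), Cflar (chr1:58711311-58758884) and Casp8 (chr1:58795233-58847503) lie 36.3 kb apart, and Birc2 (chr9:7818226-7837131) and Birc3 (chr9:7847468-7873205) lie 10.3 kb apart, with 0 starts of other protein-coding genes in between. Fasl is at chr1:161780691-161788495, Fas at chr19:34290647-34327775, Tnfsf10 at chr3:27317077-27339665 and Fadd at chr7:144578323-144582441. Each sequence is the 250 bases before a transcript's start, 5′ to 3′ on the gene's strand, in lower case with motif matches in capitals. The Casp8 window belongs to a start 7269 bases inside the gene.
Cflar, chr1:58711241-58711490, plus strand: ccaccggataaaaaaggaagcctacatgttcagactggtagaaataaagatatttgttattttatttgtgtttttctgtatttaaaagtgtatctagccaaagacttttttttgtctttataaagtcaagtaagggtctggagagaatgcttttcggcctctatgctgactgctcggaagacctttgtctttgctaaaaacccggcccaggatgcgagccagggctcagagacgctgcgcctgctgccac
Casp8, chr1:58802252-58802501, plus strand: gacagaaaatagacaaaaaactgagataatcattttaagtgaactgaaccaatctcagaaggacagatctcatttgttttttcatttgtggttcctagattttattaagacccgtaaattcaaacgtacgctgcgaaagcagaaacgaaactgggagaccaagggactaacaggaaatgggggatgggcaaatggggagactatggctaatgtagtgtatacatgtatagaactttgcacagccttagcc
Fas, chr19:34290409-34290658, plus strand: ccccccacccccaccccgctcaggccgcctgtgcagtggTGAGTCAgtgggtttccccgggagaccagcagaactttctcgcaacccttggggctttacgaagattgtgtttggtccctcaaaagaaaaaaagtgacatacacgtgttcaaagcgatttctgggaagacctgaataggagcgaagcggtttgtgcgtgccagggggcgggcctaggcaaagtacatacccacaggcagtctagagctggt
Fasl, chr1:161788496-161788745, minus strand: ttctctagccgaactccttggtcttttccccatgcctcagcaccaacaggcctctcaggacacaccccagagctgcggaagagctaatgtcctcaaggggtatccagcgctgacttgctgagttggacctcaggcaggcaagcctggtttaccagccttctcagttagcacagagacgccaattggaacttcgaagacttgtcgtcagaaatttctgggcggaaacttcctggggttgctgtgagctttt
Birc2, chr9:7837058-7837307, minus strand: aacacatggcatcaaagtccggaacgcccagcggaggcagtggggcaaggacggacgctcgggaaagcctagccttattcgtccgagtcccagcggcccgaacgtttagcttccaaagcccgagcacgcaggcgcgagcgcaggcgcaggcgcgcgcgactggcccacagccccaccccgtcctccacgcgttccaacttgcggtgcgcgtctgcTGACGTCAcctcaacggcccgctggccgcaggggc
The capitals mark an AP-1 motif (TGANTCA) in the Fas window, at 211 to 205 bases before the start. They also mark a cyclic AMP response element (CRE, TGACGTCA) in the Birc2 window shown, at 35 to 28 bases before its start. The other Birc2 window (chr9:7836807-7837056) is not shown and held 0 matches to the motifs searched. Motifs were searched on both strands in all 9 windows of the 8 genes. AP-1 was found in 1 of the 9, an NFAT core (TGGAAA) in 1 (Tnfsf10, 134 to 129 bases before the start), the NF-kappaB consensus in 0 and CRE in 1. Among 32851 RefSeq windows of this length, 6.75% hold AP-1, 18.6% the NFAT core, 3.90% the NF-kappaB consensus and 1.55% CRE. CRE was added to the search after the sequences had been seen, and a match is only a description of the letters.

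Across the 11 arrays the memory-derived unstimulated cells stood apart. On the leading principal component (56.5% of the variance) their arrays lay between 40.3 and 77.4, array 3 being the highest, and the other arrays lay between -37.45 and -11.6. The 3' minus 5' difference of actin, a sign of RNA quality, was 0.875 to 1.17 (log2) in memory-derived unstimulated, 1.43 to 1.73 in memory-derived stimulated, 1.54 to 1.59 in naive-derived unstimulated and 1.93 to 2.60 in naive-derived stimulated cells. Groups set against each other below never overlapped in it. The same difference for Gapdh was -1.51 to -1.29, -1.43 to -1.38, -1.65 to -1.42 and -1.82 to -1.48 in these groups, in that order. Of the pairs of groups compared below, only the stimulated groups did not overlap in Gapdh. The part of either measure in the results was not tested. Of 8 CD8 T cell markers 6 were analysed and lay above the filter level on all 11 arrays. Of 26 markers of 7 other cell types 21 were analysed. Of these, 7 (Cd4, Cd79a, Ms4a1, Siglech, S100a8, S100a9 and Alas2) lay below that level on all arrays. Zbtb7b, Csf1r, Adgre1, Cd68, Zbtb46 and Itgax lay above it on all 11 arrays, and the rest on some arrays. Among stimulated cells, mean Itgax was 5.58 in memory-derived and 4.35 in naive-derived cells, and mean Cd68 was 4.77 and 3.47. Both means were also lower in naive-derived cells without stimulation. Other markers of macrophages, monocytes and dendritic cells went either way among stimulated cells. Itgam (1.55 and 1.83), Adgre1 (1.801 and 1.97), Flt3 (1.54 and 1.79) and Siglech were higher in naive-derived cells. Lyz2, Csf1r and Zbtb46 (3.77 and 3.59) were lower there. Which cells carried this RNA was not tested.

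Stimulation changed most of these genes in memory-derived cells. Cflar and Fas rose, while Fasl, Casp8, Fadd, Birc2 and Birc3 fell, and Tnfsf10 did not pass the test. Thus 7 of 8 genes passed, 2 higher and 5 lower, where 31.6% of all genes tested passed (14.3% higher and 17.3% lower; limma, adjusted p below 0.05). At an unadjusted p below 0.05 the same 7 of 8 compare with 41% of all genes. The median difference of the 8 genes was -0.61 on the log2 scale, against 0.0025 over all genes tested. In 7 of 8 genes the stimulated and unstimulated arrays did not overlap, which held for 46.6% of all genes. Beside this, 5 of 6 CD8 T cell markers fell, and their summed log2 level went from 54.0 to 55.0 on the unstimulated arrays to 50.9 to 51.3 on the stimulated ones. Of 14 markers of other cell types tested, 1 rose and 2 fell, and the sum of all 21 ranged from 40.5 to 42.9 and from 39.3 to 40.9. The part of these markers in the result was not tested.

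In naive-derived cells 0 of 8 genes passed with limma, where 0.0135% of all genes (2 of 14795) did. At an unadjusted p below 0.05 there were 3 (Fas, Casp8 and Cflar), against 8.46% of all genes, and in the same 3 genes the stimulated arrays did not overlap the unstimulated ones, against 26.4% of all genes. The unstimulated group had only 2 arrays.

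Without stimulation, naive-derived cells had more Fas and Cflar RNA and less Birc2 RNA than memory-derived cells. These 3 of 8 genes passed, where 25.8% of all genes did (10.9% higher and 14.9% lower in naive-derived cells). In all 8 genes the arrays of the groups did not overlap, as in 53.4% of all genes, and 7 of 8 had an unadjusted p below 0.05, against 37.5%. This comparison and that of stimulation in memory-derived cells share the memory-derived unstimulated arrays. Among the markers, 1 of 6 CD8 T cell markers was higher in naive-derived cells, with a summed level of 54.6 to 55.5 against 54.0 to 55.0. Of the 14 markers of other cell types 1 was higher and 3 were lower, with the sum of all 21 at 37.0 to 39.5 against 40.5 to 42.9, and their part in the result was not tested.

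After stimulation, Fas and Fasl were higher in naive-derived than in memory-derived cells and the other genes did not pass. These 2 of 8 compare with 3.7% of all genes (1.69% higher and 2.01% lower), 4 of 8 with an unadjusted p below 0.05 compare with 16.3%, and groups did not overlap in 4 of 8 against 25.7%. Of the CD8 T cell markers, 2 of 6 were higher in naive-derived cells, where the summed level was 52.5 to 53.5 against 50.9 to 51.3. Of the 14 other markers 0 were higher and 2 lower, with a sum of 35.9 to 38.1 against 39.3 to 40.9. The response to stimulation itself differed between the origins for Fasl and Cflar, 2 of 8 genes where 2.71% of all genes passed (1.62% higher and 1.09% lower). At an unadjusted p below 0.05 there were 5 of 8, against 23.3%. When an array was left out, 1 to 3 genes passed between stimulated groups and 0 to 3 between the responses, with the arrays named under Fasl, Cflar, Birc2 and Birc3.

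**Figure D1:**
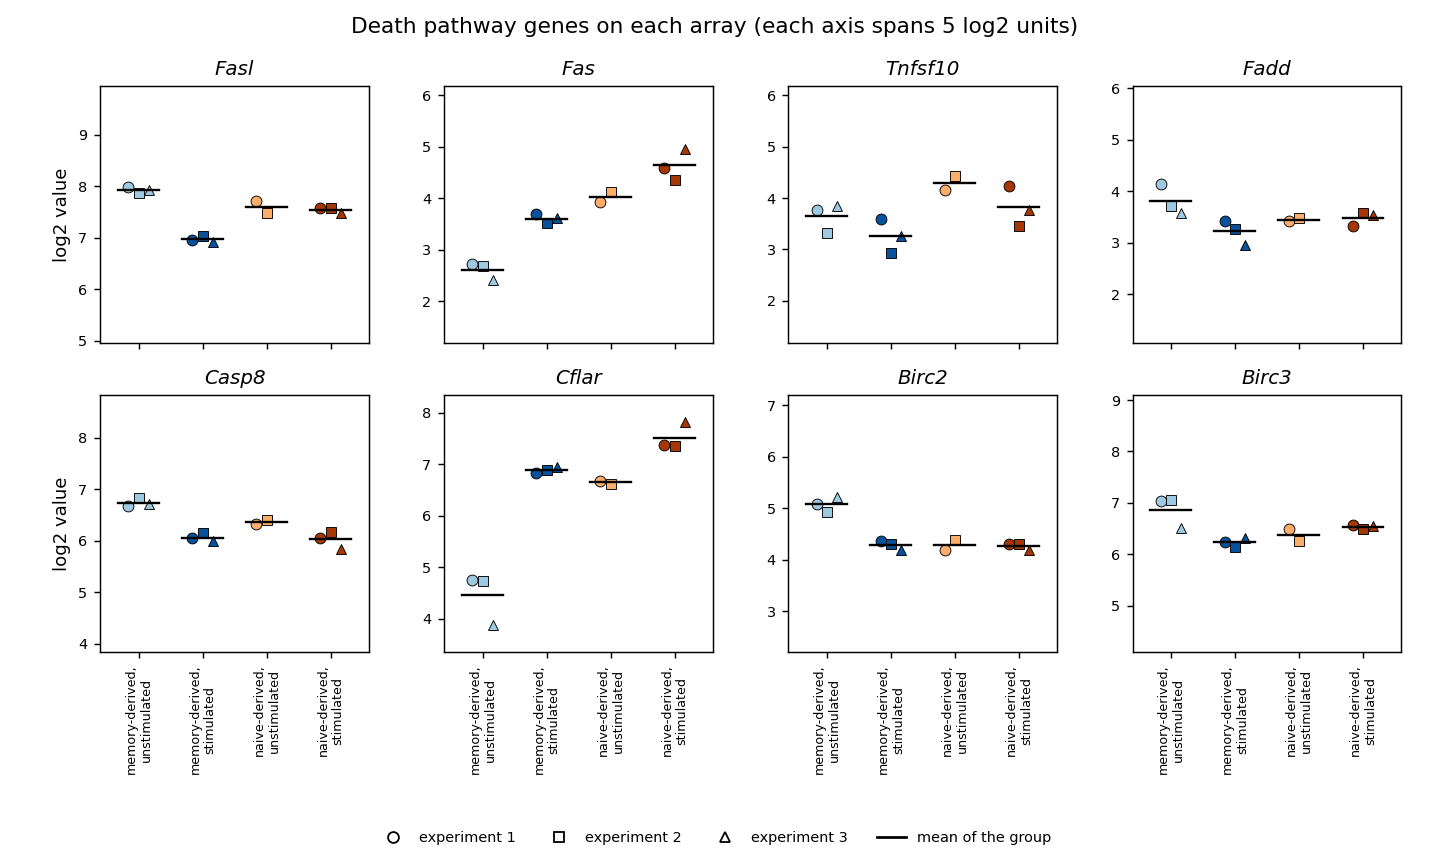
Log2 values of the 8 genes (vertical axes, each spanning the same number of log2 units) on each of the 11 arrays, by group; symbols give the experiment and bars the mean of the group. Cflar and Fas are lowest and Birc2 is highest on the 3 memory-derived unstimulated arrays.

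The ligands come first. Fasl encodes Fas ligand, the membrane protein by which cytotoxic T cells engage Fas. Its log2 value was 7.98, 7.86 and 7.92 on the memory-derived unstimulated arrays 1 to 3 and 6.95, 7.04 and 6.92 on the stimulated ones. It was 7.72 and 7.49 on the naive-derived unstimulated arrays and 7.58, 7.58 and 7.47 on the stimulated ones. The stimulated memory-derived arrays thus lay below all others, and the naive-derived groups overlapped.

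In memory-derived cells Fasl fell by 0.96 on the log2 scale with stimulation (SE 0.113, n = 3 and 3; limma adjusted p = 0.00026), a 1.94-fold lower level, and by 1.04, 0.82 and 1.01 within experiments 1, 2 and 3. In naive-derived cells the difference was -0.06 (95% confidence interval -0.34 to 0.22; limma adjusted p = 0.946). The responses differed by 0.90 (SE 0.17; limma adjusted p = 0.0303). That call was lost without any 1 of memory-derived stimulated arrays 1, 2 or 3, memory-derived unstimulated array 1, naive-derived stimulated arrays 1 or 2, or naive-derived unstimulated arrays 1 or 2, when the difference was 0.78 to 1.01 (limma adjusted p = 0.0572 to 0.122), and with the replicate block (0.92, limma adjusted p = 0.0658). Control scaling (0.86, limma adjusted p = 0.13) and experiments 1 and 2 alone (0.91, limma adjusted p = 0.0851) also ended it.

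After stimulation Fasl was higher in naive-derived cells by 0.58 (SE 0.113; limma adjusted p = 0.0174). This call was lost without any 1 of memory-derived stimulated arrays 1, 2 or 3 or naive-derived stimulated arrays 1 or 2 (0.55 to 0.61; limma adjusted p = 0.0506 to 0.0759), and with scaling on the hybridization controls (0.47; limma adjusted p = 0.229), which moved the median of all genes in this comparison from -0.01 to -0.12. With experiments 1 and 2 only it was 0.59 (limma adjusted p = 0.111). The difference between unstimulated groups, -0.32, did not pass (limma adjusted p = 0.089). It did with limma's trend and robust options (limma adjusted p = 0.047) and the 60th percentile filter (limma adjusted p = 0.0452). With the mean of both probe sets it was -0.33 and passed (limma adjusted p = 0.039). The second Fasl probe set, 1418803_a_at, fell by 0.75 with stimulation in memory-derived cells (adjusted p = 0.000862 in the limma fit over every probe set), and the difference of the responses there was 0.81 (adjusted p = 0.0454 in the same limma fit). Between stimulated groups that probe set differed by 0.47 and did not pass (adjusted p = 0.0509 in the same limma fit). Between unstimulated groups it differed by -0.34 and did not pass either (adjusted p = 0.0737 in that limma fit).

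Tnfsf10 encodes TRAIL, a ligand related to Fas ligand that binds the receptor made by Tnfrsf10b. Its values were 3.77, 3.32 and 3.84 on the memory-derived unstimulated arrays, 3.59, 2.92 and 3.27 on the stimulated ones, 4.16 and 4.43 on the naive-derived unstimulated ones and 4.24, 3.46 and 3.77 on the stimulated ones. Neighbouring groups in the order of the means overlapped throughout. The difference with stimulation was -0.38 in memory-derived cells (95% confidence interval -0.90 to 0.13) and -0.48 in naive-derived cells (-1.05 to 0.10), and none of the 5 comparisons passed. The naive-derived level was higher by 0.65 without stimulation (limma adjusted p = 0.09) and by 0.56 after it (limma adjusted p = 0.254). The other probe sets of the gene, 1420412_at and 1459913_at, differed by -0.21 and -0.34 with stimulation in memory-derived cells and did not pass either.

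Fas encodes the death receptor bound by Fas ligand. It was the lowest on memory-derived unstimulated arrays, at 2.73, 2.68 and 2.41. It was 3.70, 3.51 and 3.61 on memory-derived stimulated arrays, 3.93 and 4.12 on naive-derived unstimulated arrays and 4.60, 4.36 and 4.96 on naive-derived stimulated arrays. The groups followed each other in that order with no overlap between neighbours.

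With stimulation Fas rose by 1.00 in memory-derived cells (SE 0.163; limma adjusted p = 0.00126), a 2.00-fold change, and by 0.97, 0.83 and 1.20 within the 3 experiments. In naive-derived cells the difference was 0.61 (95% confidence interval 0.21 to 1.01) and did not pass (limma adjusted p = 0.392). The difference between these responses was -0.39 (-0.92 to 0.15; limma adjusted p = 0.37). Naive-derived cells had more Fas than memory-derived cells, by 1.42 without stimulation (SE 0.182; limma adjusted p = 0.00055), or 2.68-fold, and by 1.03 after it (SE 0.163; limma adjusted p = 0.00548), or 2.05-fold. All 3 calls kept their side of the threshold in each alternative analysis, the largest adjusted p being 0.0415 for the difference after stimulation. Fas has only 1 probe set here.

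Fadd encodes the adaptor between the receptor and procaspase 8. Its values were 4.14, 3.71 and 3.59 on memory-derived unstimulated arrays, 3.43, 3.27 and 2.96 on the stimulated ones, 3.43 and 3.48 on naive-derived unstimulated arrays and 3.33, 3.57 and 3.55 on the stimulated ones. The memory-derived unstimulated arrays lay above all others. With stimulation of these cells Fadd fell by 0.59 (SE 0.171; limma adjusted p = 0.0227). The call was lost without memory-derived unstimulated array 1 (-0.43, limma adjusted p = 0.0822), memory-derived stimulated array 2 (-0.61, limma adjusted p = 0.0527) or array 3 (-0.46, limma adjusted p = 0.0895), and with the mean of both probe sets (-0.35, limma adjusted p = 0.153). It was also lost with control scaling (-0.61, limma adjusted p = 0.0794), with experiments 1 and 2 only (-0.57, limma adjusted p = 0.0696) and in a fit of only these groups (limma adjusted p = 0.0563). In naive-derived cells the difference was 0.03 (95% confidence interval -0.39 to 0.46). Without stimulation naive-derived minus memory-derived was -0.36 (limma adjusted p = 0.202), and after it 0.26 (limma adjusted p = 0.496). The second Fadd probe set, 1446499_at, differed by only -0.11 with stimulation in memory-derived cells. It did not pass (adjusted p = 0.766 in the limma fit over every probe set).

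Casp8 encodes the caspase that starts the proteolytic cascade. It was 6.68, 6.83 and 6.71 on memory-derived unstimulated arrays and 6.04, 6.15 and 5.99 on the stimulated ones. It was 6.32 and 6.40 on naive-derived unstimulated arrays and 6.06, 6.17 and 5.84 on the stimulated ones. The stimulated groups overlapped each other and lay below both unstimulated groups.

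Casp8 fell by 0.68 with stimulation in memory-derived cells (SE 0.122; limma adjusted p = 0.00215), by 0.63, 0.68 and 0.72 within the 3 experiments. The difference in naive-derived cells was -0.33 (95% confidence interval -0.64 to -0.03) and did not pass (limma adjusted p = 0.563), nor did the difference between the responses, 0.34 (limma adjusted p = 0.287). Naive-derived minus memory-derived was -0.38 without stimulation, which did not pass (limma adjusted p = 0.0637) but did with the replicate block (-0.43, limma adjusted p = 0.0477). It also did with limma's trend and robust options (limma adjusted p = 0.0331) and the 60th percentile filter (limma adjusted p = 0.0324). The mean of a gene's probe sets had the same outcome (limma adjusted p = 0.0471). After stimulation naive-derived minus memory-derived was -0.04 (95% confidence interval -0.31 to 0.23).

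Cflar encodes c-FLIP, the inhibitor that competes with caspase 8 for FADD, and its difference was the largest of the 8 genes in each comparison except that between stimulated groups. Its values were 4.76, 4.73 and 3.88 on memory-derived unstimulated arrays and 6.83, 6.89 and 6.94 on the stimulated ones. They were 6.68 and 6.62 on naive-derived unstimulated arrays and 7.37, 7.35 and 7.82 on the stimulated ones. In this probe set, the brightest of the gene, no neighbouring groups overlapped. Its lowest array outside the memory-derived unstimulated group was at 6.62, against 4.76 for the highest within that group. In 1424996_at the other groups did overlap. There the memory-derived stimulated arrays lay at 6.395 to 6.64, the naive-derived unstimulated ones at 6.21 to 6.61 and the naive-derived stimulated ones at 6.59 to 6.99.

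Stimulation raised Cflar by 2.43 in memory-derived cells (SE 0.222; limma adjusted p = 7.08e-05), a 5.39-fold increase, with 2.08, 2.16 and 3.06 in experiments 1, 2 and 3. In naive-derived cells the difference was 0.86 (95% confidence interval 0.32 to 1.41; limma adjusted p = 0.377), with the arrays not overlapping. The difference between the responses was -1.57 (SE 0.334; limma adjusted p = 0.0411). That call was lost without any 1 of memory-derived stimulated arrays 1, 2 or 3, naive-derived stimulated arrays 1 or 2, or naive-derived unstimulated arrays 1 or 2, when the value was -1.60 to -1.48 (limma adjusted p = 0.0808 to 0.143), with the replicate block (-1.53, limma adjusted p = 0.0919) and with no filter on low values (limma adjusted p = 0.0551).

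Naive-derived cells had 4.57-fold more Cflar than memory-derived cells without stimulation, a difference of 2.19 (SE 0.249; limma adjusted p = 0.000338). After stimulation the difference was 0.63 (95% confidence interval 0.14 to 1.12) and did not pass (limma adjusted p = 0.18), although it did without memory-derived unstimulated array 3, which is not in that comparison but shares its estimate of the spread (0.63, limma adjusted p = 0.0318).

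The 5 probe sets of Cflar did not give the same size of change. With stimulation in memory-derived cells, 1449317_at rose by 2.43, 1424996_at by 1.61 and 1425686_at by 1.37 (adjusted p = 7.15e-05, 0.000221 and 0.000302 in the limma fit over every probe set). 1425687_at differed by 0.64 and 1453482_at by -0.12, and neither passed (adjusted p = 0.0583 and 0.603 in the same limma fit). Between the unstimulated groups, 4 of the 5 were higher in naive-derived cells, by 1.05 to 2.19, and 1453482_at differed by 0.02. Between the responses, only 1449317_at passed (adjusted p = 0.0466 in that limma fit). There 1424996_at differed by -1.18 and 1425686_at by -1.11, and neither passed (adjusted p = 0.0551 and 0.0510 in that limma fit). 1425687_at (-0.52) and 1453482_at (-0.19) did not pass either (adjusted p = 0.413 and 0.672 in that limma fit). With the mean of all 5 probe sets in place of the brightest, the difference was 1.18 with stimulation in memory-derived cells. It was 1.19 between unstimulated groups and -0.91 between the responses, and each of these still passed. In the same setting it was 0.27 with stimulation in naive-derived cells and 0.28 between stimulated groups, and neither passed. Singly, 1424996_at differed by 0.43 with stimulation in naive-derived cells, 1425686_at by 0.26, 1425687_at by 0.12 and 1453482_at by -0.31, and none passed. Which Cflar transcripts each probe set detects is not given in the sources used here.

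**Figure D2:**
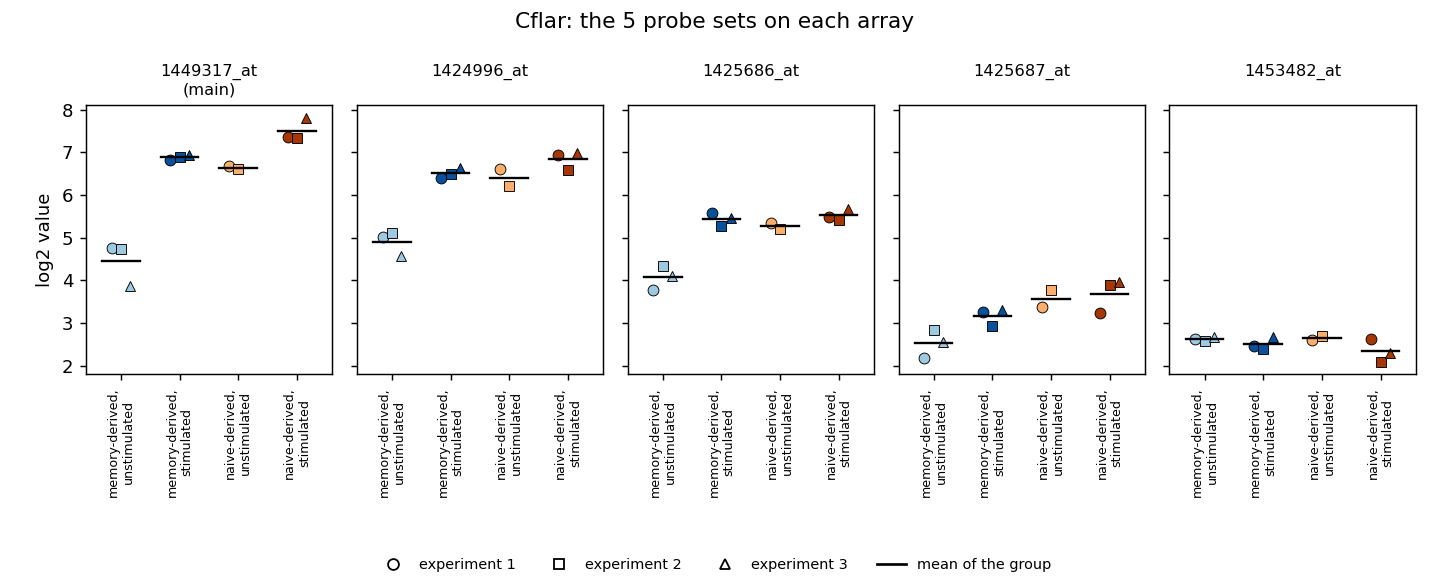
Log2 values (vertical axis) of the 5 Cflar probe sets on the 11 arrays, by group; symbols give the experiment and bars the mean of the group. In 1449317_at, 1424996_at and 1425686_at the memory-derived unstimulated arrays lie below all others, while 1453482_at stays between 2.08 and 2.69 on all 11 arrays.

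Birc2 encodes cIAP1, a ubiquitin ligase bound to TRAF2 at the TNF receptor. It was 5.09, 4.94 and 5.22 on memory-derived unstimulated arrays. The other 8 arrays were lower, at 4.38, 4.30 and 4.20 (memory-derived stimulated), 4.20 and 4.39 (naive-derived unstimulated) and 4.31, 4.32 and 4.20 (naive-derived stimulated). These 3 groups overlapped each other and not the first.

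Birc2 fell by 0.79 with stimulation in memory-derived cells (SE 0.122; limma adjusted p = 0.000948) and was lower in naive-derived than in memory-derived unstimulated cells, at -0.79 (SE 0.137; limma adjusted p = 0.00233). Both differences are taken against the same 3 arrays. Within naive-derived cells stimulation made a difference of -0.01 (95% confidence interval -0.31 to 0.29), and after stimulation the origins differed by -0.01 (-0.28 to 0.25). The difference of the responses, 0.78 (0.37 to 1.18), did not pass (limma adjusted p = 0.0513), but did without memory-derived unstimulated array 2 (0.85, limma adjusted p = 0.0233). It also did with limma's trend and robust options (limma adjusted p = 0.0209) and the 60th percentile filter (limma adjusted p = 0.0238). The mean of a gene's probe sets (limma adjusted p = 0.0413) and a random block by origin and experiment (limma adjusted p = 0.0339) had the same outcome.

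Birc3 encodes cIAP2, the close relative of cIAP1. Its values were 7.04, 7.06 and 6.51 on memory-derived unstimulated arrays, 6.24, 6.15 and 6.31 on the stimulated ones, 6.50 and 6.26 on naive-derived unstimulated arrays and 6.58, 6.49 and 6.56 on the stimulated ones. Memory-derived unstimulated array 3 lay below the other arrays of its group, and neighbouring groups in the order of the means overlapped.

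With stimulation Birc3 fell by 0.63 in memory-derived cells (SE 0.157; limma adjusted p = 0.0108), by 0.79, 0.91 and 0.19 within experiments 1, 2 and 3. In naive-derived cells the difference was 0.16 (95% confidence interval -0.23 to 0.55). The difference between unstimulated groups was -0.49 (limma adjusted p = 0.0647), and that between the responses 0.79 (limma adjusted p = 0.0865). Neither passed. Leaving out memory-derived unstimulated array 3 made both pass, at -0.67 (limma adjusted p = 0.00686) and 0.97 (limma adjusted p = 0.0236). Both also passed with limma's trend and robust options (limma adjusted p = 0.0334 and 0.0389) and the 60th percentile filter (limma adjusted p = 0.0367 and 0.0476). The unstimulated difference passed too with the mean of both probe sets (-0.60, limma adjusted p = 0.0182) and with experiments 1 and 2 only (limma adjusted p = 0.0188). The dim second probe set, 1425223_at, lay above the filter level on only 4 arrays. It differed by -0.62 with stimulation in memory-derived cells (adjusted p = 0.0318 in the limma fit over every probe set). Between unstimulated groups it differed by -0.71 and passed (adjusted p = 0.0353 in that limma fit), with the naive-derived arrays below the filter level. Between stimulated groups it differed by -0.23 (adjusted p = 0.632 in that limma fit) and the main probe set by 0.31 (limma adjusted p = 0.367). Neither of these passed. The gene table lists the symbols Birc2 and Birc3 as synonyms of each other, so these names follow the gene identifiers.

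**Figure D3:**
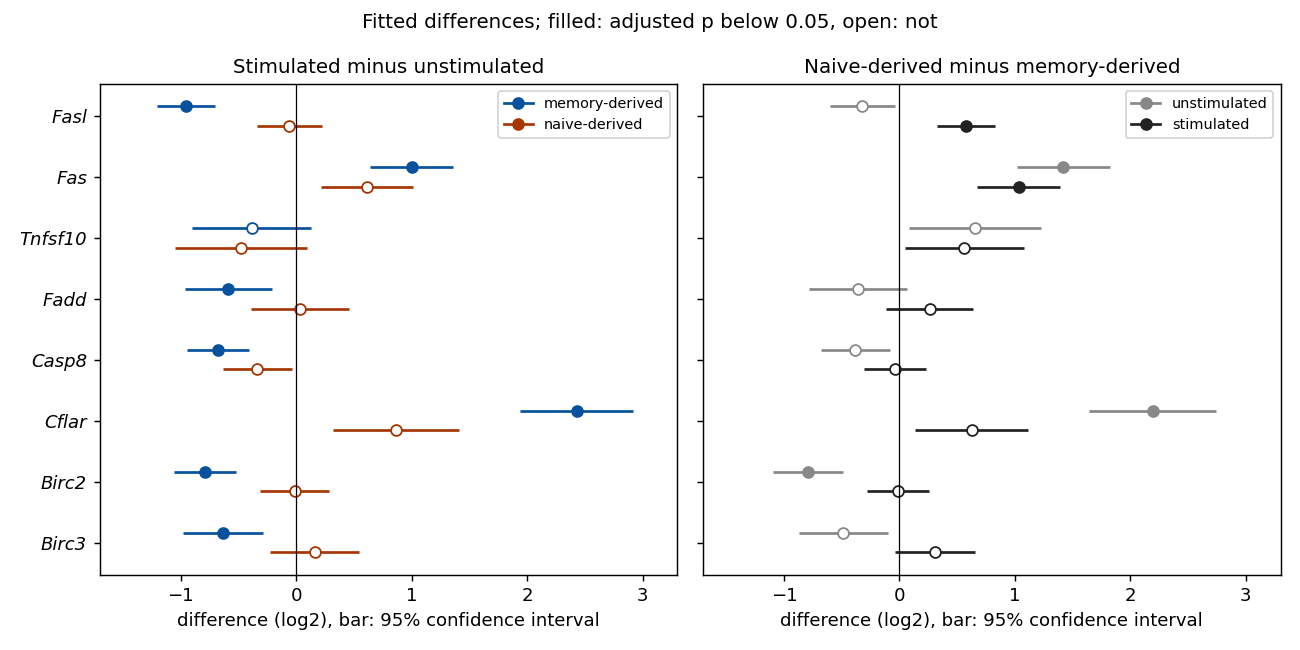
Fitted log2 differences (horizontal axis, with 95% confidence intervals) of the 8 genes for stimulated minus unstimulated cells of each origin and for naive-derived minus memory-derived cells of each state. Filled points have a limma adjusted p below 0.05: 7 in memory-derived cells, 0 in naive-derived cells, 3 between unstimulated and 2 between stimulated groups.

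Within an array, the log2 difference between 2 genes does not change when the whole array is multiplied by a factor. It was compared between groups as a description, with no test, and its absolute value has no meaning because each probe set has its own brightness. Cflar minus Casp8 was -1.92, -2.10 and -2.83 on memory-derived unstimulated arrays and 0.79, 0.74 and 0.94 on the stimulated ones, with means of -2.28 ± 0.481 (SD, n = 3) and 0.83 ± 0.106 (SD, n = 3). It was 0.36 and 0.22 on naive-derived unstimulated arrays and 1.31, 1.18 and 1.98 on the stimulated ones. The 4 groups did not overlap in this difference, which used the brightest Cflar probe set. It was not computed for the other Cflar probe sets.

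Fas minus Fasl, the receptor against its ligand, was -5.26, -5.18 and -5.51 on memory-derived unstimulated arrays and -3.25, -3.52 and -3.31 on the stimulated ones. It was -3.78 and -3.37 on naive-derived unstimulated arrays and -2.99, -3.22 and -2.51 on the stimulated ones. Here the memory-derived unstimulated arrays were the lowest by over 1 log2 unit, and the memory-derived stimulated and naive-derived unstimulated arrays overlapped.

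**Figure D4:**
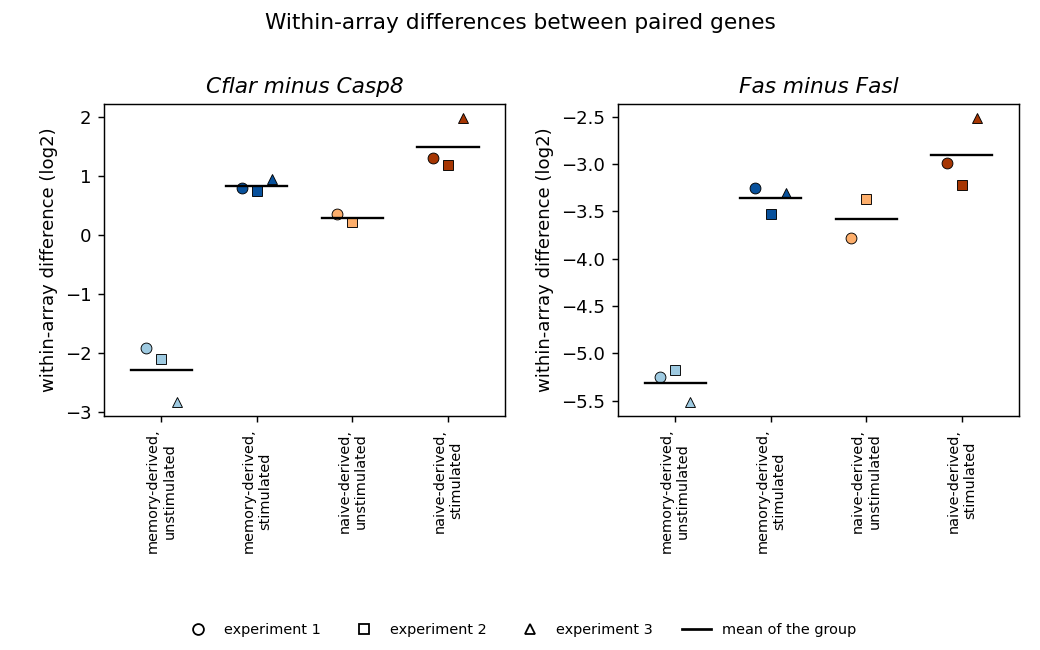
Differences within each array (vertical axes, log2) of Cflar minus Casp8 and of Fas minus Fasl, by group; symbols give the experiment and bars the mean of the group. Both differences are lowest on the memory-derived unstimulated arrays, at -2.83 to -1.92 and at -5.51 to -5.18.

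Genes with the most similar pattern were found by Pearson's correlation of log2 values over the 11 arrays, which fall into only 4 groups. Cflar was most like Zdhhc13 (r = 0.993), Irf4 (0.992), a transcription factor induced by T cell receptor signals, and Eea1 (0.992). Fas was most like Ptgs2 (0.992), which encodes an inducible prostaglandin synthase, Slc15a3 (0.986) and Hacd1 (0.984). Fasl was most like Psmb10 (0.971), a subunit of the immunoproteasome, Gbp6 (0.953) and Stxbp4 (0.946). Casp8 was most like Cd200r1 (0.983), Dynll1 (0.975) and Ptprcap (0.970). Birc2 was most like Trim34a (0.991), Cryzl1 (0.988) and Pxylp1 (0.988), and Birc3 like Bhlhe40 (0.908), Lgals7 (0.888) and Nfkbie (0.887), an inhibitor of NF-kappaB. The closest genes were Fadd's D16Ertd472e (0.956), Pomp (0.909) and P4htm (0.904) and, lowest of all, Tnfsf10's Gt(ROSA)26Sor (0.887), Tafa3 (0.885) and Sgms1 (0.876).

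The other genes of the extrinsic pathway were taken from a list of 40, of which 36 were tested and 4 were not analysed here. With stimulation in memory-derived cells 20 of 36 passed, 6 higher and 14 lower (31.6% of all genes passed), with a median of -0.26 on the log2 scale against 0.0025 over all genes. With experiments 1 and 2 only, 11 passed. In naive-derived cells 0 passed with limma, where 0.0135% of all genes did. At an unadjusted p below 0.05 there were 3 of 36, against 8.46% of all genes. Between unstimulated groups 25.8% of all genes passed (10.9% higher and 14.9% lower in naive-derived cells). Of the 36 genes 13 passed there, 4 higher and 9 lower (median -0.20 against -0.009). This last count was 5 without naive-derived unstimulated array 1, 8 without array 2 and 8 in a fit of only these groups. Between the responses 1 of 36 passed (Tnf), where 2.71% of all genes did. That count was 7 without memory-derived unstimulated array 2. It was 0 without memory-derived unstimulated array 1, naive-derived stimulated array 1 or 2, any memory-derived stimulated array or either naive-derived unstimulated array.

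Among the ligands of this list, Tnf, the cytokine TNF, was 5.66, 6.06 and 5.23 on memory-derived unstimulated arrays, 9.51, 9.83 and 10.23 on the stimulated ones, 9.06 and 7.93 on naive-derived unstimulated arrays and 9.84, 9.44 and 10.50 on the stimulated ones. The naive-derived unstimulated arrays were thus well above the memory-derived ones and below the stimulated ones of both origins. Tnf rose by 4.20 in memory-derived cells (SE 0.348; limma adjusted p = 4.38e-05) and was higher by 2.84 in naive-derived than in memory-derived unstimulated cells (limma adjusted p = 0.000739). In naive-derived cells the difference with stimulation was 1.44 (95% confidence interval 0.58 to 2.30) and did not pass (limma adjusted p = 0.328).

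Of the receptors, Tnfrsf10b, which binds TRAIL, was dim, at 1.72, 1.92 and 1.25 on memory-derived unstimulated arrays and 2.19 to 2.49 on the others. It rose by 0.63 with stimulation in memory-derived cells (limma adjusted p = 0.0133), which control scaling (limma adjusted p = 0.0535) and experiments 1 and 2 alone (0.44, limma adjusted p = 0.0705) ended. Between unstimulated groups it was 0.58 higher in naive-derived cells (limma adjusted p = 0.0384), a call lost in 8 of 11 analyses that left out an array: without any 1 of memory-derived stimulated arrays 1, 2 or 3, memory-derived unstimulated arrays 1 or 3, naive-derived stimulated array 1 or naive-derived unstimulated arrays 1 or 2 (0.39 to 0.62; limma adjusted p = 0.0524 to 0.159). The call was also lost with the replicate block (0.50, limma adjusted p = 0.0663). Tnfrsf1a, the widely expressed TNF receptor, differed by -0.0035 with stimulation in memory-derived cells (95% confidence interval -0.36 to 0.35). Between stimulated groups 3.7% of all genes passed. Of the 36 genes of the list 1 did, Tnfrsf12a, the receptor of the ligand TWEAK, lower in naive-derived cells (limma adjusted p = 0.0111). Its mean there was 1.31, below the filter level of 1.54, against 2.75 in memory-derived cells, so the size of the difference is not given. The call was lost with experiments 1 and 2 only. It is named because it was the only such gene, which was seen after its values.

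Downstream of the receptors, Bid, which links caspase 8 to the mitochondria, rose by 0.92 with stimulation in memory-derived cells (SE 0.203; limma adjusted p = 0.00609), from 5.52, 5.86 and 4.91 to 6.34, 6.34 and 6.36. Apaf1, the scaffold of the apoptosome, fell by 1.12 there (limma adjusted p = 0.00281). Between unstimulated groups Apaf1 was lower in naive-derived cells at -1.002 (limma adjusted p = 0.0109), as was Casp9, the caspase that Apaf1 activates (limma adjusted p = 0.00571). Casp9 was dim, at 1.63 and 1.13 on the naive-derived arrays, around the filter level of 1.54, against 2.19, 2.40 and 2.67 on the memory-derived ones, so its difference of -1.05 is not a measured fold. The Apaf1 call was lost without naive-derived unstimulated array 1 (-0.91, limma adjusted p = 0.0843). The Casp9 call was lost without array 2 of that group (-0.80, limma adjusted p = 0.0715) and with the mean of its probe sets (-0.60, limma adjusted p = 0.0747).

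Among regulators of the TNF receptor complex, Tnfaip3, the ubiquitin-editing inhibitor A20, rose by 1.34 with stimulation in memory-derived cells (limma adjusted p = 0.00308), and Cyld, a deubiquitinase of the same complex, fell by 0.99 (limma adjusted p = 0.00141). Between unstimulated groups Tnfaip3 was higher in naive-derived cells by 1.20 (limma adjusted p = 0.0119) and Tank, which binds TRAF proteins, by 0.65 (limma adjusted p = 0.0182). Both of these calls were lost without naive-derived unstimulated array 1 (1.06, limma adjusted p = 0.0932, and 0.48, limma adjusted p = 0.165). The Tank call was also lost with control scaling (0.59, limma adjusted p = 0.0817), with experiments 1 and 2 only (0.50, limma adjusted p = 0.0623) and in a fit of only these groups (limma adjusted p = 0.0815).

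Of the other IAP genes, Birc5, which encodes survivin and is highest in dividing cells, fell by 1.76 with stimulation in memory-derived cells (limma adjusted p = 0.000874). Between unstimulated groups it was lower in naive-derived cells at -1.04 (limma adjusted p = 0.0268), a call lost with the replicate block (-1.03, limma adjusted p = 0.0634) and in a fit of only these groups (limma adjusted p = 0.0536). Leaving out memory-derived unstimulated array 3 (-0.75, limma adjusted p = 0.0703), naive-derived unstimulated array 1 (-0.93, limma adjusted p = 0.149) or array 2 (-1.14, limma adjusted p = 0.0875) also ended it. Xiap, a direct inhibitor of caspases, differed by -0.79 with stimulation in memory-derived cells (limma adjusted p = 0.00316) and by -0.86 between unstimulated groups (limma adjusted p = 0.00472) for its brightest probe set. The mean of its probe sets gave 0.14 and 0.02 (limma adjusted p = 0.312 and 0.909), so no direction is given for this gene.

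**Figure D5:**
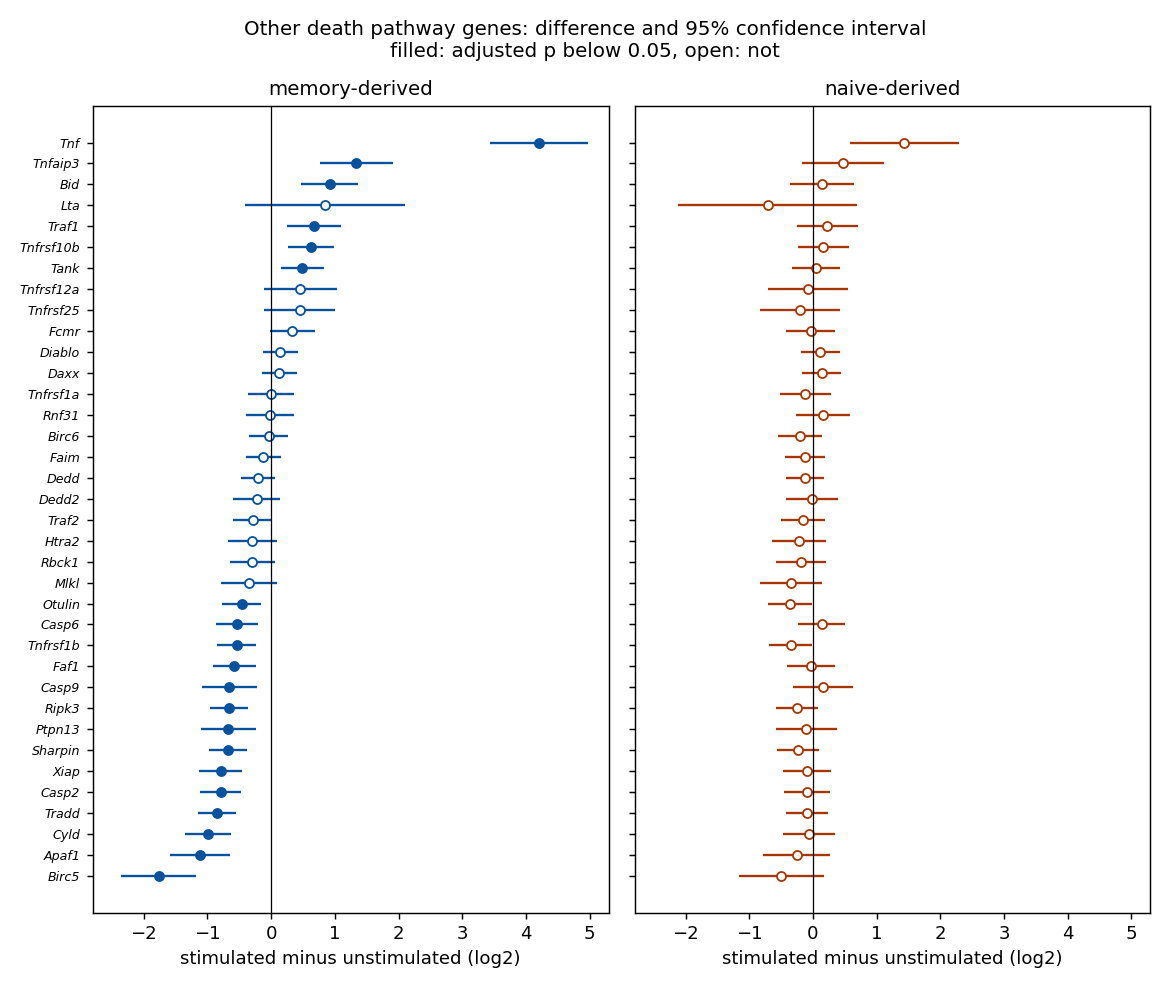
Stimulated minus unstimulated difference (horizontal axis, log2, with 95% confidence intervals) of the 36 other pathway genes tested, in memory-derived and in naive-derived cells. Filled points have a limma adjusted p below 0.05: 20 in memory-derived cells, from -1.76 for Birc5 to 4.20 for Tnf, and 0 in naive-derived cells.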

How the data were processed

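Total RNA of 11 samples was hybridised to Affymetrix arrays. The authors deposited log10 values per probe set, made with Affymetrix Expression Console per the submitters' processing notes. The summarization method is not given in the sources used here. The log base was inferred from the hybridization controls, and every fold rests on it. All arrays hold the same sorted values, which shows quantile normalization before deposit, so intensity gives no depth and precision is limited by how many arrays there are.

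The log2 scale used here is the deposited value times 3.32. Of 45101 probe sets, 64 were controls, 34945 had 1 gene symbol, 932 carried several symbols and 9160 were absent from the annotation used here. A gene was its probe set with the highest mean, tested if it exceeded the 40th percentile (1.54) on 2 or more arrays. limma 3.58.1 in R 4.3.3 (lmFit, eBayes; 7 residual and 3.86 prior degrees of freedom) fitted the 4 groups over all 11 arrays. P-values were two-sided, with Benjamini-Hochberg adjustment over 14795 genes within a comparison and a threshold of 0.05 to which "passed", "rose", "fell" and "lost" refer. SE is the standard error of the fitted difference. The fitting code was tested on simulated data. Figures were drawn with matplotlib 3.10.9 in Python 3.11.15.

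The sample titles give a biological replicate number, which was taken as that of the experiment, and so as pairing arrays across groups. The correlation of deviations from group means was -0.0716 to 0.112 over the 15 pairs of arrays that share an experiment (median 0.0341) and -0.131 to 0.112 over 30 other pairs (median -0.00361). The model held no replicate block, and a model with it was an alternative. Other alternatives were limma's trend and robust options, no filter or a filter at the 60th percentile, every probe set or the mean of a gene's probe sets, scaling on hybridization controls, experiments 1 and 2 only, and leaving out each array.

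All 8 genes were named with every probe set. From a list of 40 other pathway genes the 3 largest increases and decreases that passed with stimulation in memory-derived cells and between unstimulated groups were named, and always Tnfrsf10b, Tnfrsf1a, Bid, Xiap and Tnfaip3. For each of the 8 genes the 3 most correlated genes were named. Genes and lists were chosen with earlier results of these data known. All 8 gene identifiers matched the RefSeq tables used for positions and promoters.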

Additional observations from a re-analysis of the deposited data

Results flagged for a closer look

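The response to stimulation differed between naive-derived and memory-derived cells by the test of the difference itself in 3 of the genes named here. For Fasl, naive-derived minus memory-derived response was 0.90 on the log2 scale (limma adjusted p = 0.0303): the ligand fell on all 3 stimulated memory-derived arrays, and the naive-derived groups overlapped. The Fasl call was lost in 8 of 11 analyses that left out an array (0.78 to 1.01 over all 11), and in 11 of all 21 alternatives, with limma adjusted p = 0.0067 to 0.13 over these. For Cflar it was -1.57 (limma adjusted p = 0.0411), with a larger increase in memory-derived cells, which started from the lowest level. The Cflar call was lost in 7 of 11 analyses that left out an array (-1.72 to -1.28 over all 11), and in 9 of all 21 alternatives, with limma adjusted p = 0.0119 to 0.143 over these. For Tnf it was -2.77 (SE 0.522; limma adjusted p = 0.0301), with naive-derived unstimulated arrays at 9.06 and 7.93 against 5.23 to 6.06 in memory-derived ones. The Tnf call was lost in 8 of 11 analyses that left out an array (memory-derived stimulated arrays 1, 2 or 3, memory-derived unstimulated array 1, naive-derived stimulated arrays 1 or 2, naive-derived unstimulated arrays 1 or 2), at -3.33 to -2.20 (limma adjusted p = 0.0551 to 0.131), with the replicate block (-2.85, limma adjusted p = 0.0658) and with experiments 1 and 2 only (-2.66, limma adjusted p = 0.071). The arrays whose omission ended the Fasl call were these 8 too, and for Cflar they were these without memory-derived unstimulated array 1.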

How the results depend on the processing

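Over 22 alternatives the 40 results for the 8 genes (5 comparisons each) gave 872 values, of which 800 kept their direction and side of the threshold, 34 lost a call, 21 gained one and 17 changed sign. None of the 44 sign changes over all named genes passed the threshold under the alternative (0 of 44). Fitting only the groups compared, and a random block by origin and experiment, were chosen after seeing the data. Leaving out each array in turn, genes passing ranged from 3437 to 4739 (4675 with all arrays) for stimulation in memory-derived cells, 0 to 5 (2) in naive-derived cells, 1843 to 4161 (3819) between unstimulated groups, 287 to 701 (548) between stimulated groups and 0 to 1505 (401) between the responses, and the count among the 8 genes from 6 to 7, 0 to 0, 3 to 4, 1 to 3 and 0 to 3. Among the other pathway genes these counts were 15 to 21, 0 to 0, 5 to 17, 1 to 1 and 0 to 7. With experiments 1 and 2 only, 11 of these passed with stimulation in memory-derived cells (20 in all experiments), 0 between stimulated groups (1) and 0 between the responses (1). Between the responses 3 passed with trend and robust, the 60th percentile filter or the random block and 0 with the replicate block, and between unstimulated groups 8 (13) with only the groups compared. The replicate block gave 26 genes between the responses, 0 of the 8 genes there, and 0 genes with stimulation in naive-derived cells. Genes passing between the responses were 1120 with trend and robust options, 174 with no filter, 1064 with the 60th percentile filter, 155 with control scaling, 49 with experiments 1 and 2 and 891 with the random block. With stimulation in naive-derived cells they were 13, 0, 1, 1 and 1 in the first 5 of these settings and 0 with only the groups compared. In memory-derived cells 7608 probe sets passed with every probe set tested and 2755 genes with experiments 1 and 2. Between unstimulated groups 6073 probe sets passed, and 2376 genes with only the groups compared. Between stimulated groups 258 passed with experiments 1 and 2. Of the 8 genes, 6 passed between unstimulated groups with the trend and robust options, the 60th percentile filter or the mean of probe sets. Between the responses 4 passed with trend and robust or the 60th percentile filter, and 1 with no filter, control scaling or experiments 1 and 2. Between stimulated groups 1 passed with control scaling or experiments 1 and 2. Control scaling moved the share of calls that were higher from 45.6% to 31.1% between stimulated groups and from 59.6% to 49.0% between the responses. Some differences changed sign, most of them small. The larger ones were those of Xiap (from -0.79, -0.86 and 0.69) and Casp9 (from -0.23). With stimulation in naive-derived cells these were Fasl at 0.000989, Fadd at -0.0174 and Cyld at 0.0767 (mean of probe sets), Fadd at -0.0190 and Tank at -0.00180 (control scaling), and Birc2 at 0.0242 and Cyld at 0.0546 (experiments 1 and 2). Between stimulated groups they were Casp8 at 0.0204, Apaf1 at 0.0429 and Tnf at -0.0277 (experiments 1 and 2), Cyld at -0.101 and Tnf at -0.0310 (control scaling), and Casp9 at 0.304 (mean of probe sets). Tnfrsf1a was at 0.00735 with stimulation in memory-derived cells (experiments 1 and 2). With the mean of probe sets Xiap was at 0.135 with stimulation in memory-derived cells, 0.0206 between unstimulated groups and -0.199 between the responses. Leaving out each array, the values that crossed 0 with stimulation in naive-derived cells ranged from -0.173 to 0.0574 for Fasl, -0.00971 to 0.109 for Fadd, -0.110 to 0.0821 for Birc2, -0.189 to 0.0746 for Cyld, -0.0921 to 0.407 for Casp9, -0.119 to 0.221 for Tank and -0.230 to 0.0681 for Tnfrsf1a. Between stimulated groups they ranged from -0.111 to 0.0550 for Casp8, -0.0614 to 0.0275 for Birc2, -0.237 to 0.0311 for Apaf1, -0.0993 to 0.143 for Cyld and -0.213 to 0.317 for Tnf. Between the responses they ranged from -0.301 to 0.0918 for Tnfsf10 and -0.227 to 0.0716 for Tnfrsf1a, and with stimulation in memory-derived cells from -0.0429 to 0.0564 for Tnfrsf1a. The cause of these changes was not tested.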
